A study of Aspergillus nidulans with 6 samples.

Results

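The genes AN7170, AN5781, AN0833, AN6973 and AN8907 of the filamentous fungus Aspergillus nidulans carry a locus number but no symbol in the gene table used here, and each lay under a chromatin region with a strong KaeA-HA ChIP-Seq signal. The 5 regions were selected on the immunoprecipitated (IP) signal against input in these same libraries, out of 468 peaks in all. Their enrichment is therefore given as a description, without a test. The extent of each peak over its gene, the position of the summit and the domains encoded in the DNA were not the ground of the choice. Extent and summit still come from the same IP signal, and domains were sought within the peaks, so they are not independent of it. They are described beside the counts, as is the behaviour of related genes, from lists made with earlier results of these data known. The members are not every such gene: of the other 16 peaks among the 21 with the highest fold change, 10 also lay on genes with no symbol in that table, AN1549 among them, and 3 lay on no gene. A missing symbol there does not mean an unstudied gene, since the 10 include AN4376 and AN7463, which the study names gdhA and meaA.

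KaeA is the fungal counterpart of Kae1, a subunit of the conserved KEOPS complex, which places the threonylcarbamoyl modification on tRNAs that read codons starting with A, and which has also been linked to chromatin and transcription in yeast. In the 6 libraries the question was which chromatin regions KaeA interacts with. All came from mycelium, grown in liquid minimal medium, of 1 strain in which KaeA carries the HA epitope tag, from a kaeA::HA fusion placed with the A.f. pyrG marker. Input and IP share all its other alleles, which are argB2, pabaB22, pyrG89, a deletion of nkuA marked with argB (nkuAΔ::argB), and riboB2. The number after riboB differs between the labels of the libraries, and the study's methods give riboB2. Mycelium was crosslinked with 1% formaldehyde for 15 min and sonicated for 25 min, and chromatin was precipitated with the anti-HA antibody 12CA5. The 3 IP libraries were compared with 3 input libraries, which are the DNA of the same tagged strain before precipitation. The labels call the 3 libraries of each group biological replicates. No IP from an untagged strain was analysed here, so DNA that the antibody or the beads take up without KaeA-HA cannot be told apart from DNA bound through it.

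The deposited table holds paired-end read counts on each peak. The libraries held between 162458 and 377238 counts over the 468 peaks, and the lowest count of any peak was 59. Total sequencing depth was not used here. Counts were divided by the effective library size (the summed counts on peaks times a TMM factor, which ranged from 0.947 to 1.04) and multiplied by its mean, giving normalized read counts. The fold change of a peak is thus relative to the typical peak of the table, and not to the genome outside peaks. Across all 468 peaks, the quasi-likelihood test of edgeR, adjusted by Benjamini-Hochberg, called 76 (16.2%) at a threshold of 0.05, 52 of them (11.1%) higher in IP and 24 lower. Leaving out IP replicate 2 raised the number called to 132, while leaving out the first IP library or the first input library lowered it to 47 or 49. With scaling by library size alone the split was 38 higher and 60 lower. In 77 peaks (16.5%) all 3 IP libraries lay above all 3 input libraries. The 5 peaks were in each of the sets of peaks higher in IP, 5 of 5, which the way they were chosen fixes.

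The genes fall into groups by what their DNA encodes. The deposited domain annotation was made on the translated peak sequences, in stretches between stop codons. Basic helix-loop-helix (bHLH) proteins are dimeric transcription factors whose basic region contacts DNA and whose helices join the partners. Small heat shock proteins of the Hsp20 or alpha-crystallin family are chaperones that hold unfolding proteins without using ATP. C-4 sterol methyl oxidase, Erg25 in budding yeast, is an iron-dependent enzyme of the endoplasmic reticulum. It starts the removal of the methyl groups at C-4 of a precursor of ergosterol, the main sterol of fungal membranes.

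AN7170 encoded a helix-loop-helix DNA-binding domain and lay under the peak with the highest fold change of all. Its peak spanned IV:789801-791654 on assembly ASM1142v1, a length of 1854 bp, and covered 100% of the gene, which runs from 790088 to 791516. The peak reached 287 bp beyond the lower-coordinate end of the gene and 138 bp beyond the upper end, and its summit at 790685 stood 597 bp inside the lower end. The input libraries 1, 2 and 3 held 1014, 1244 and 777 reads on it, and the IP libraries 4473, 2781 and 3029. After normalization the input counts were 1083, 1127 and 1214 (1141 ± 66.9, SD, n = 3) and the IP counts 3231, 3042 and 2967 (3080 ± 136, SD, n = 3). The lowest IP library stood far above the highest input library, and the 3 IP libraries were close to each other. IP was 2.70-fold above input, a log2 fold change of 1.43 (SE 0.08). Each IP library divided by each input library gave 9 quotients from 2.44 to 2.98.

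The helix-loop-helix match (PF00010) covered residues 113 to 183 of a translated stretch of 206 amino acids, with an E-value of 8.6e-10. Its only GO term was protein dimerization activity. Of the 468 peaks, 1 carried this domain, the AN7170 peak, so there was no further bHLH peak to compare with. The deposited fold enrichment of this peak, the MACS2 value from the pooled IP against the pooled input libraries, was 6.18, the highest of all 468, whose median was 1.53. Its pileup of 702 fragments at the summit was the rank 4 value.

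AN5781 encoded a small heat shock protein of the Hsp20 family. The peak at V:1458958-1460318 was 1361 bp long and covered 100% of the gene, from 1458971 to 1460229, with 13 bp beyond the lower end and 89 bp beyond the upper end. Its summit at 1459171 stood near one end of the gene, 200 bp inside the lower end and 1058 bp from the upper one. Raw counts were 761, 920 and 557 in input and 2541, 1653 and 1625 in IP. Normalized, input gave 813, 833 and 870 (839 ± 29.3, SD, n = 3), and IP gave 1836, 1808 and 1592 (1745 ± 134, SD, n = 3). The groups did not overlap, and IP library 3 was the lowest of its group. IP exceeded input 2.08-fold, with a log2 fold change of 1.06 (SE 0.08), and the 9 quotients ran from 1.83 to 2.26. The deposited fold enrichment was 3.57. The Hsp20 match (PF00011) covered residues 166 to 232 of a stretch of 233 amino acids, with an E-value of 6.0e-11 and no GO term.

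AN0833 was the gene about which the files said least: its peak carried no Pfam match, no GO term and no pathway. The peak at VIII:2284823-2286413 was 1591 bp long, and only 49.1% of it lay on the gene, which runs from 2285633 to 2286415 and was covered to 99.7%. The other part extended 810 bp below the gene and reached 128 bp into AN0834 (2282039 to 2284950), 4.40% of that gene. The summit at 2286036 stood inside AN0833, 403 bp from its lower and 379 bp from its upper end, and thus near the middle of the gene. Raw counts were 1072, 1321 and 772 in input and 3830, 1594 and 2446 in IP. The normalized input counts of 1145, 1197 and 1206 (1183 ± 33.2, SD, n = 3) were nearly equal. Those of the IP libraries were 2767, 1743 and 2396 (2302 ± 518, SD, n = 3). All IP libraries were above all input libraries, but IP library 2 was well below the other two.

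The spread over the IP libraries was the particular trait of the AN0833 peak. The coefficient of variation of its IP counts was 22.5%, the rank 11 value of 468 peaks, whose median was 8.98%. That of its input counts was 2.81%. The fold change was 1.95, or 0.96 on the log2 scale (SE 0.12), and the quotients spread from 1.45 to 2.42. Without IP replicate 2 the log2 fold change was 1.13, and without IP replicate 1 it was 0.80. The deposited fold enrichment was 3.63. A low IP library 2 was not confined to this peak. It was also the lowest IP library at AN6973 and AN8907, and at peaks near AN0833 in profile, such as hhtA (1523, 1211 and 1524), but not at AN7170 and AN5781. Over all peaks, chi-square per degree of freedom was 9.82 and 11.0 between IP library 2 and IP libraries 1 and 3. Between IP libraries 1 and 3 it was 4.28. The cause was not tested.

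AN6973 and AN8907 lay on different chromosomes and carried the same annotation, a putative C-4 sterol methyl oxidase, in the study's gene descriptions. Both encoded the fatty acid hydroxylase domain PF04116, which sterol oxidases and desaturases share. The AN6973 peak at IV:1434490-1435991 was 1502 bp long and covered 96.0% of the gene (1434435 to 1435814). It left out the lowest coordinates of the gene and reached 177 bp beyond the upper end, with the summit at 1434965, 530 bp inside the lower end. Raw counts were 979, 1180 and 689 in input and 2275, 1396 and 1684 in IP. The normalized counts of 1045, 1069 and 1077 in input (1064 ± 16.4, SD, n = 3) were the tightest of the 5 peaks, and IP gave 1644, 1527 and 1649 (1607 ± 69.2, SD, n = 3). IP stood 1.51-fold above input, a log2 fold change of 0.60 (SE 0.08), with quotients from 1.42 to 1.58.

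The AN8907 peak at VII:494912-496217 was 1306 bp long and covered 100% of its gene (495092 to 496166), with 180 bp beyond the lower and 51 bp beyond the upper end. Its summit was at 495557, 465 bp inside the lower end. It held 697, 865 and 515 reads in input and 1618, 981 and 1279 in IP. After normalization these became 744, 784 and 805 (778 ± 30.7, SD, n = 3) and 1169, 1073 and 1253 (1165 ± 90.0, SD, n = 3). As at AN6973, the groups did not overlap and IP library 2 was the lowest of the IP libraries. The fold change was 1.50, or 0.58 on the log2 scale (SE 0.08), and the quotients ran from 1.33 to 1.68. The deposited fold enrichment was 2.89, beside 2.85 for AN6973.

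**Figure D1:**
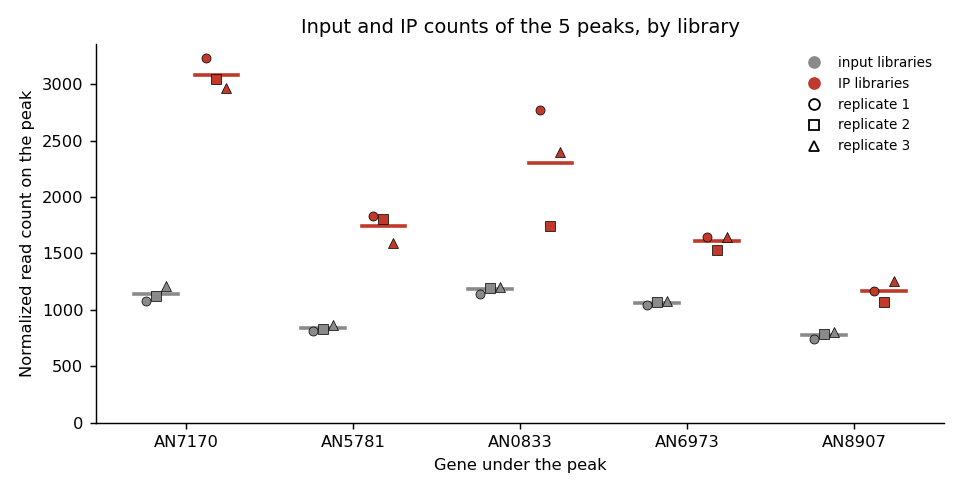
Normalized read counts on the 5 peaks in each input (grey) and IP (red) library, with the replicate number given by the symbol and the group mean by a line. At each peak the 3 IP libraries lie above the 3 input libraries, and the IP libraries of AN0833 spread from 1743 to 2767.

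The domain matches of the 2 sterol enzymes were alike in extent. The match at AN6973 covered residues 29 to 165 of 188 (E-value 5.8e-26), and that at AN8907 residues 95 to 227 of 233 (E-value 3.0e-25), which is 137 and 133 residues. Both carried the GO terms iron ion binding, lipid biosynthetic process, oxidoreductase activity and oxidation-reduction process. Iron ion binding and lipid biosynthetic process were each given to 4 of the 468 peaks, oxidoreductase activity to 14 and oxidation-reduction process to 24. No member peak was given a pathway, which 43 peaks were.

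By log2 fold change the order was AN7170, AN5781, AN0833, AN6973 and AN8907, at ranks 1, 4, 7, 18 and 21 of the 468 peaks. AN7170 stood 0.38 above AN5781 on the log2 scale, with an SE of 0.12 for that gap, and AN0833 stood 0.37 above AN6973 (SE 0.14). The gap between AN5781 and AN0833 was 0.09 (SE 0.15), and that between AN6973 and AN8907 was 0.01 (SE 0.11), each smaller than its SE. These SEs combine those of the 2 peaks as if independent, although both were measured in the same libraries. The gaps are a description and not a test. AN0833 moved within the order with the library: divided by the mean of the input libraries, it lay above AN5781 in IP libraries 1 and 3 and below it in IP library 2. AN6973 lay above AN8907 in IP libraries 1 and 2 and below it in IP library 3. AN7170 came first in each.

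**Figure D2:**
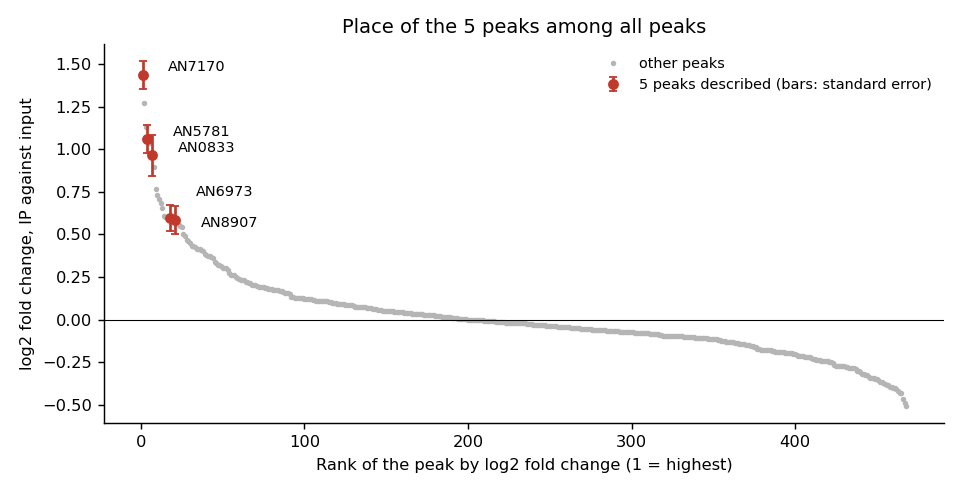
Log2 fold change of IP against input for all 468 peaks in order of rank, with the 5 peaks in red and bars for their standard error. AN7170 is at rank 1 with 1.43 and AN8907 at rank 21 with 0.58, while the median of all peaks is -0.02.

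There was no threshold in the choice, but the peaks next to the members in this order show what stood beside them. Between AN7170 and AN5781 came the peak of hsp70, the gene of the Hsp70 chaperone, with a log2 fold change of 1.27, and that of AN2530, a further Hsp20 gene, with 1.13. Between AN5781 and AN0833 stood AN4376 with 1.03, the gene of NADP-dependent glutamate dehydrogenase, which assimilates ammonium, and AN0858 with 0.98, the gene of an Hsp104-type disaggregase. Just below AN0833 was a peak with no gene on chromosome V, at 0.89, and AN2000 at 0.77. The sterol oxidase genes stood in a closely spaced stretch, with AN1549 and AN6731 at 0.60 just above AN6973, and AN2265 and hsp90 at 0.59 between it and AN8907. Below AN8907 followed cbpA with 0.57 and AN10285 with 0.55.

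The depth of input over the 5 genes was ordinary. Input normalized counts per kb of peak were 616 for AN7170 and AN5781, 708 for AN6973 and 595 for AN8907, with the highest, 743, for AN0833, against a median of 656 over all peaks. The IP counts per kb were 1661 for AN7170, 1282 for AN5781, 1447 for AN0833, 1070 for AN6973 and 892 for AN8907, against a median of 668. On this scale AN0833 stood above AN5781 in IP, as it did in input. The peaks were long. The shortest of the 5 measured 1306 bp and the longest 1854 bp, while the median of all peaks was 397 bp and their range was 184 to 4313 bp. Length was not particular to the 5: the peaks on genes beside them in the order above ran from 1026 bp (AN1549) to 4313 bp (AN10285). The chromosome V peak with no gene measured 302 bp.

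All 5 peaks covered at least 80% of a gene, which 67 of 468 peaks (14.3%) did, and all 5 had the summit inside the gene, as 348 (74.4%) had. Of the family peaks named further below, those of AN2530, AN7892, AN2042, erg24B and sur2 also covered that much. Those of AN3555, AN6506 and erg13 did not. The authors' annotation put all 5 in the class 5′ UTR, as it did 51 of 468 (10.9%). The peaks on genes beside them in the order above were in this class too, except that of AN2265 (3′ UTR). The nearest gene that this annotation lists for them was 20819 to 395474 bp away, although each peak lay on its gene by position, so neither the class nor that distance was used further. The direction of transcription is not in the gene table used here, so the ends are given by coordinate and not as start and stop.

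**Figure D3:**
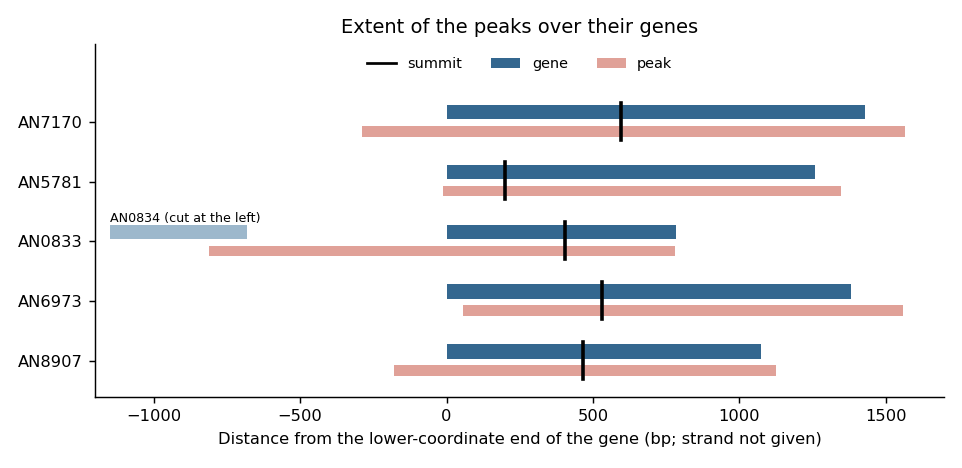
Extent of each peak (pink) and its gene (blue) in bp from the lower-coordinate end of the gene, with the summit as a black line. The peaks cover 96.0% to 100% of their genes, and that of AN0833 reaches 810 bp below its gene into AN0834.

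Peaks close to the 5 genes on the same chromosome were counted next. AN7170 had 4 further peaks within 20000 bp, and AN6973 had 3. The nearest peak above AN7170 lay 3119 bp away on fhpA, a gene for a forkhead-type protein, with a log2 fold change of -0.08 (SE 0.11), and the nearest below lay 10402 bp away on AN7173 with -0.00 (SE 0.13). Of the 4 peaks, 1 was called higher in IP, that on AN7166 with 0.41 (SE 0.12). The nearest peak above AN6973 was 2292 bp away on no gene, with 0.11 (SE 0.10), and 0 of its 3 neighbours were called by edgeR, by DESeq2 or at an unadjusted p under 0.05. The nearest below AN6973 was 324993 bp away, also on no gene, with -0.11 (SE 0.13). Of these 7 peaks within 20000 bp, 1 was thus called, a share that with so few peaks cannot be set apart from the 16.2% called over all peaks.

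AN5781, AN0833 and AN8907 had no further peak within 20000 bp. Nearest to AN5781 were a peak on AN5792, 22105 bp below, with a log2 fold change of -0.23 (SE 0.12), and one on rgsA and AN10725, 80612 bp above, with 0.17 (SE 0.09). Those nearest to AN0833 lay on AN0849, 52608 bp below, with -0.02 (SE 0.13), and on AN0771, 175323 bp above, with -0.18 (SE 0.12). On either side of AN8907 the nearest peaks lay on no gene, 161134 bp below with 0.20 (SE 0.10) and 112599 bp above with -0.10 (SE 0.12). Of the 10 peaks nearest on either side of the 5 genes, 0 were called by edgeR or DESeq2, where edgeR called 16.2% of all peaks. At an unadjusted p under 0.05 the count was 0 of 10, where that of all peaks was 121 of 468 (25.9%). With 10 peaks these counts are a description.

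The pattern over the 6 libraries was compared between peaks. Likeness was measured as the root-mean-square distance between log2 CPM values, each peak centred on its own mean, so that small values mean the same pattern, and it rests on 6 libraries only. Most of this distance is the difference between IP and input, on which the members were chosen, so it largely repeats the order above and is a description. Nearest to AN7170 was hsp70 (0.093), then AN2530 (0.178) and AN5781 (0.195), against a median distance of 0.740 to all other peaks. Nearest to AN5781 was the Hsp104-type gene AN0858 (0.044), followed by AN2530 (0.070) and hsp70 (0.112), against a median of 0.557. Nearest to AN0833 were AN2000 and the chromosome V peak with no gene, both at 0.164, and the histone H3 gene hhtA at 0.169, against a median of 0.529.

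AN6973 and AN8907 were the closest pair among the 5, with a distance of 0.041, and the most distant pair was AN7170 and AN8907 with 0.434. The nearest peak to AN6973 was that on AN3468, which the study lists as a histone H2A gene, and AN3467 (0.034), and AN8907 came next. To AN8907 the peak on AN3470 and AN3469 (0.028), which lies close to the AN3468 peak on chromosome VI, and that on AN2265 (0.035) were the nearest. The median distance to all other peaks was 0.333 for AN6973 and 0.334 for AN8907.

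Other genes of the same families were compared, from lists that were made with earlier results of these data known. Hsp20 domains were encoded in 4 of the 468 peaks, one of them that of AN5781. The other 3 were called higher in IP, as 11.1% of all peaks were. They had log2 fold changes of 1.13 (SE 0.09) at AN2530, 0.43 (SE 0.10) at AN7892 and 0.33 (SE 0.09) at AN3555, with adjusted p of 2.7e-08, 0.0042 and 0.014 in edgeR. Their median was 0.43, against -0.02 over all peaks. The Hsp20 list, like that of the hydroxylase domain below, holds only genes under a peak. Genes of these families with no peak were not counted, whereas the sterol list includes them. The 3 calls are thus a description of these peaks and not a test of the Hsp20 family.

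The domain shared by AN6973 and AN8907 was found in 4 peaks, and the other 2 were not called by edgeR, by DESeq2 or at an unadjusted p under 0.05. These were AN6506, whose yeast counterpart ERG3 encodes the sterol C-5 desaturase, with a log2 fold change of -0.00 (SE 0.09, adjusted p = 0.997 in edgeR), and sur2, the gene of the sphingolipid C4-hydroxylase, with 0.09 (SE 0.08, adjusted p = 0.600 in edgeR). Among 20 genes of sterol synthesis, 6 lay under a peak, AN6973 and AN8907 among them, whose calls the choice of members fixes. Of the other 4, 0 were called by edgeR, where 16.2% of all peaks were. They were AN2042, the counterpart of the yeast cytochrome P450 reductase gene NCP1, with 0.21, erg24B, a sterol C-14 reductase gene, with 0.19, erg13, which encodes HMG-CoA synthase, with -0.10, and AN6506. Their adjusted p in edgeR ranged from 0.147 to 0.997, with 2 of the 4 at an unadjusted p under 0.05 and 0 called by DESeq2. The median of these 4 was 0.10, beside -0.02 over all peaks. Squalene epoxidase, squalene synthase and sterol C-24 methyltransferase, by the symbols erg1, erg9 and erg6, were among the 14 genes of the list with no peak.

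**Figure D4:**
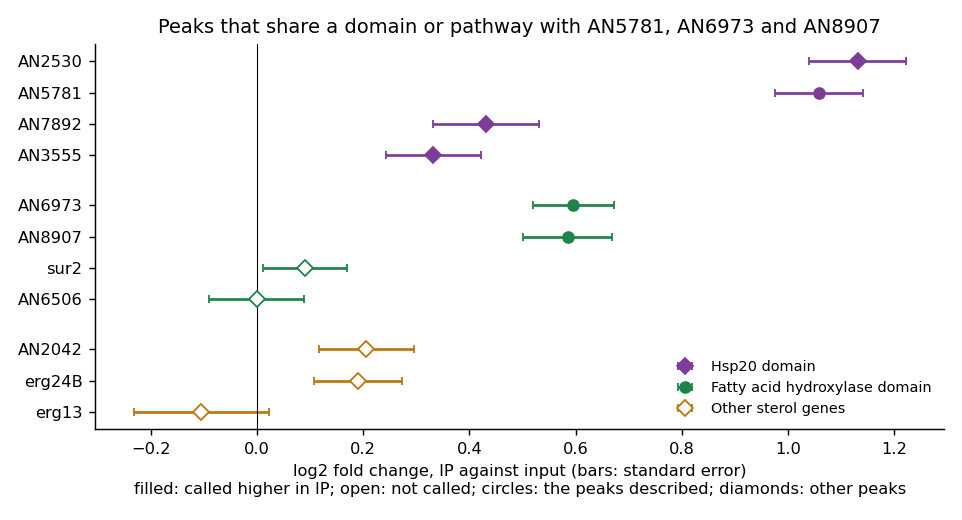
Log2 fold change of IP against input, with its standard error, for peaks that encode an Hsp20 domain (purple), a fatty acid hydroxylase domain (green) or another sterol synthesis gene (brown); filled symbols were called higher in IP. The 4 Hsp20 peaks range from 0.33 to 1.13, and the sterol and hydroxylase peaks other than AN6973 and AN8907 from -0.10 to 0.21.

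The size of the fold changes rested on what the libraries were scaled to. Since peaks are regions already found higher in IP by MACS2, centring on the median MACS2 fold enrichment raised every log2 fold change by 0.64, to 2.07 for AN7170 and to 1.22 for AN8907. This added 1 constant to each peak. The MACS2 value of the pooled libraries is not a ratio of counts over the whole peak, so the 2 measures are unlike. When the fit was limited to the 60 peaks with a MACS2 enrichment of 2 or more, AN7170 was at 0.97, AN5781 at 0.59 and AN0833 at 0.49. AN6973 and AN8907 were at 0.13 and 0.12 and no longer called. That fit was also centred anew on the 60 peaks, which lowered the 5 values by 0.47 each to 2 decimals. In the fit of all peaks, 48 of the 60 were called higher. With the trend of fold change on peak length removed, AN7170 was at 1.11, AN5781 at 0.83, AN0833 at 0.69, AN6973 at 0.34 and AN8907 at 0.37.

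**Figure D5:**
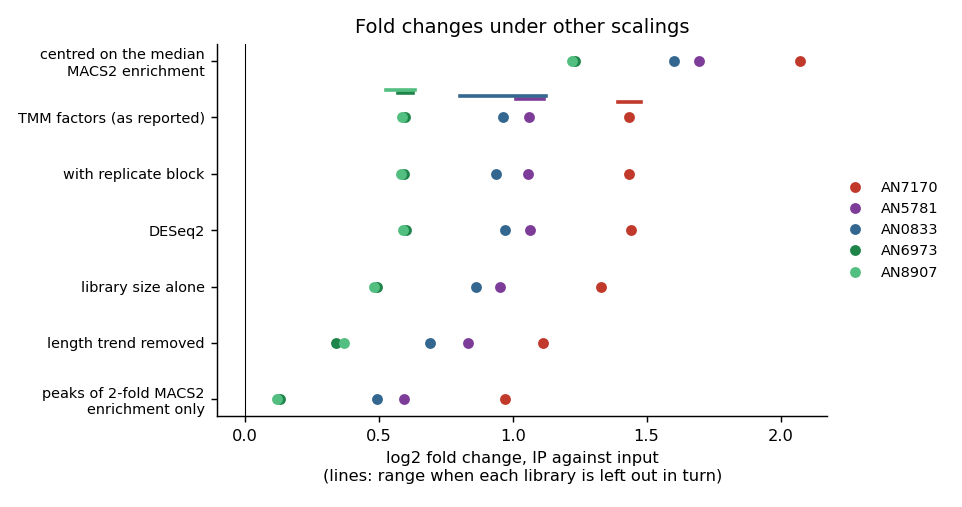
Log2 fold change of IP against input of the 5 peaks (colours) under 7 scalings or models, with lines above the reported values for the range when each library is left out in turn. AN7170 is highest in each, and AN6973 and AN8907 range from 0.12 to 1.23 with the scaling.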

How the data were processed

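Per the labels and the study's methods, the authors trimmed paired-end reads of 100 bp with Trimmomatic, mapped them with BWA to assembly ASM1142v1, removed optical duplicates with Picard and called peaks with MACS2 on the merged replicates of each group. Peaks were thus called on pooled libraries. The deposited count table holds unnormalized read counts per peak and library. The deposited MACS2 table gives the pileup (a signal, fragments at the summit), the fold enrichment (a ratio) and the -log10 q-value of the pooled libraries. The authors' edgeR columns hold their own fold changes and p-values and were not used. The authors' domain table lists InterProScan matches with E-values on translated peaks, counted here as distinct peaks.

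Counts were fitted with edgeR 4.0.16 (R 4.3.3, TMM factors, quasi-likelihood, no block) over all 468 peaks, as IP against input. No filter on low counts was applied. Standard errors come from this fit, and those of gaps between 2 peaks combine the 2 errors as if independent. The procedure was also run on counts simulated with the means and dispersions of that fit. Such counts follow the fitted model, so the run tried the code and not whether the model suits these data. Genes were assigned to peaks where they shared 1 bp or more, from the RefSeq table of ASM1142v1 (10516 genes, no strand), in which all 5 members matched by locus tag. Chi-square per degree of freedom between any 2 libraries was 1.96 to 27.7, so none was a copy of another.

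The members and the gene lists were chosen with earlier results of these data known. Besides the members, the text names for each the 2 peaks next above and below in fold change, the 3 with the nearest profile, the nearest on either side on the chromosome, and the peaks of the sterol, Hsp20 and hydroxylase lists. Sterol genes came from the study's descriptions and from symbols starting with erg. AN7166 and the genes with no peak were named after their values were seen. Promoter motifs and protein identities were planned but not computed, since no sequence was used here.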

Additional observations from a re-analysis of the deposited data

How the results depend on the processing

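No fold change of the 5 peaks reversed under the alternatives run, a direction that the choice of members largely fixes. Upper-quartile factors, a minimum of 200 counts in 3 libraries (362 peaks), the likelihood ratio test and DESeq2 1.42.0 gave 75, 82, 84 and 76 called peaks, against 76. Scaling by library size alone gave 98, of which 38 were higher and 60 lower, against 52 and 24, and put AN6973 at 0.49. A fit limited to the 60 peaks with a MACS2 enrichment of 2 or more called 22, 12 of them higher, against 48 called higher among the same 60 in the fit of all peaks. It was also centred on those 60, and put AN7170 at 0.97, AN5781 at 0.59, AN0833 at 0.49, AN6973 at 0.13 and AN8907 at 0.12. Over all 468 peaks, a demand for a difference of at least 2-fold left 5 called, 5 higher. These were not the 5 members but the peaks of AN7170, hsp70, AN2530, AN5781 and AN4376. AN0833, AN6973 and AN8907 fell below that limit. Centring on the MACS2 median gave 2.07 for AN7170, 1.70 for AN5781, 1.60 for AN0833, 1.23 for AN6973 and 1.22 for AN8907. Removing the length trend gave 1.11 for AN7170, 0.83 for AN5781, 0.34 for AN6973 and 0.37 for AN8907. The cause of these shifts beyond their construction was not tested.

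Leaving out each library in turn gave 47 to 132 called peaks and 38 to 72 higher: 49 without input replicate 1, 47 without IP replicate 1 and 132 without IP replicate 2. The log2 fold change ranged from 1.39 to 1.48 for AN7170, 1.01 to 1.12 for AN5781, 0.80 to 1.13 for AN0833, 0.57 to 0.63 for AN6973 and 0.53 to 0.64 for AN8907. AN0833 passed AN5781 without IP replicate 2, and AN8907 passed AN6973 without input replicate 3, IP replicate 1 or IP replicate 2.

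Input and IP libraries share replicate numbers. The deviations of same-numbered libraries correlated at -0.11, -0.05 and 0.03, however, and no library correlated best with its own number. With a replicate block 83 peaks were called, 55 higher, and the 5 log2 fold changes were 1.43, 1.06, 0.94, 0.59 and 0.58.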
